A study of Homo sapiens with 3 samples.

Results

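The kinases and adaptor proteins of the DNA damage checkpoint were examined as 10 genes in human HepG2 cells exposed to etoposide. They are ATM, ATR, ATRIP, CHEK1, CHEK2, TP53BP1, MDC1, NBN, MRE11A and PARP1, and a probe was counted as theirs where the gene name of the array design equals the symbol and the spot is not a control. All 10 of them were found, among 27274 gene names on the array. They were measured by 15 probes on 24 spots. HepG2 is an established hepatocellular carcinoma line. The conditions were cells without etoposide (0 µM, named untreated in the sample labels and DMSO by the study), cells given 10 µM etoposide (the low dose) and cells given 100 µM etoposide (the high dose), all harvested 30 h after the start of treatment. Each condition has 1 array of total RNA labeled with Cy3, and differences between them are therefore given without p-values. In the study the low dose was used to obtain senescent cells and the high dose apoptotic cells, and the arrays were compared to find genes that differ between these states.

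Etoposide traps topoisomerase II on DNA and leaves double-strand breaks. Breaks are bound by the MRE11A-RAD50-NBN complex, which recruits and activates the kinase ATM, while single-stranded DNA coated by RPA recruits ATR through its partner ATRIP. Both kinases phosphorylate many proteins around the lesion, among them the adaptors MDC1 and TP53BP1, and pass the signal on to CHEK2 and CHEK1, which restrain the CDC25 phosphatases and act on p53. These steps run mostly through phosphorylation of proteins already present, and the arrays measure only the amount of RNA. Because the RNA comes from whole cultures, fewer cells of a kind and less RNA per cell cannot be told apart.

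All 15 probes were well above background on all 3 arrays by the scanner software's own call, and none of their spots was saturated or marked as an outlier. A signal below is the deposited background-subtracted intensity of the spot. A log2 change or a fold is taken after each signal was divided by the 75th percentile over the probes of that array (514 for control, 536 for 10 µM and 432 for 100 µM). The number after ± is the spot SD, which is the SD of a log2 change that the spread between repeated spots of similar brightness on the same arrays gives, and it covers neither cultures nor RNA preparations. Signals of different probes were not compared with each other, because their hybridization differs. Where a gene has a pair of probes, the brighter stands for the gene in counts and both are given.

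CHEK1, CHEK2 and MRE11A were more than 2-fold higher at 10 than at 100 µM, which is 3 of 10, and no member was more than 2-fold lower, whereas 3.64% of the 16806 genes measured were more than 2-fold higher and 3.95% lower. The median log2 change of the 10 between the doses was 0.39, compared with -0.11 over all genes. At 100 µM over control 1 of 10, CHEK1, was more than 2-fold lower and none was higher, beside 3.63% of 16988 genes lower and 6.75% higher. Their median was -0.68, against 0.10 over all genes. With 10 µM over control no member was past 2-fold in either direction, beside 3.38% of 16725 genes higher and 1.58% lower, and the median was 0.16, against -0.04 over all genes. Both doses were compared with the same control array. The direction of calls over all genes depended on the scaling. At 100 µM over control 65.0% of the genes past 2-fold were higher, but 37.2% without scaling, 33.1% with scaling to the median, 49.8% with quantile normalization and 45.1% with scaling to spike-in RNA. Between the doses the corresponding shares were 48.0%, 77.8%, 74.6%, 65.6% and 71.3%. The 3 members past 2-fold between the doses passed under each of these scalings. With normexp background correction MRE11A was at 0.92 on the log2 scale and did not pass, which left 2. Across scalings the count of members past 2-fold lower at 100 µM ranged from 1 to 4. The share of all genes past it ranged from 3.30% to 6.96%.

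**Figure D1:**
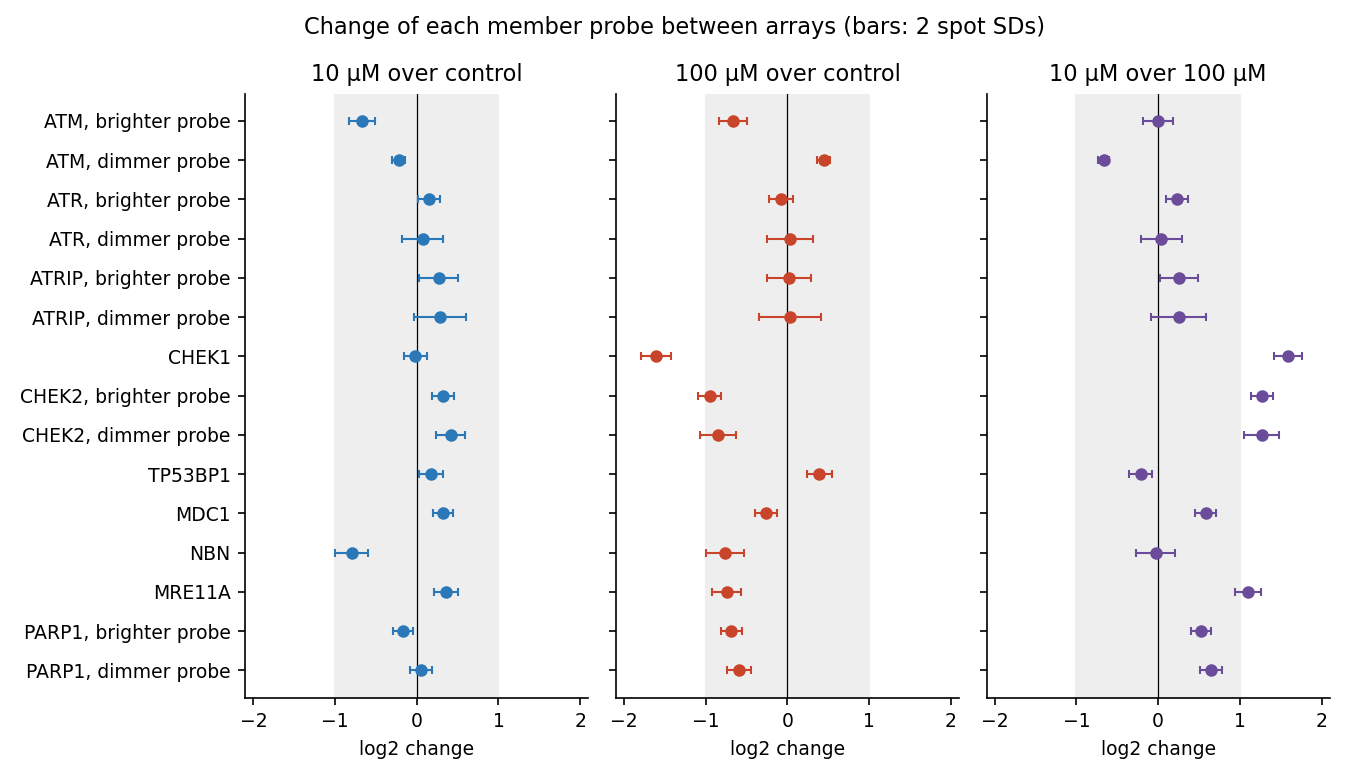
Log2 change of each of the 15 member probes for 10 µM over control (left), 100 µM over control (middle) and 10 µM over 100 µM (right), each from 1 array per condition. Points are the change after scaling to the 75th percentile, bars are 2 spot SDs on either side, and the grey band marks changes within 2-fold. CHEK1 lies at -1.61 in the middle panel, and CHEK1, both CHEK2 probes and MRE11A lie beyond the band in the right panel.

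CHEK1 encodes the effector kinase that acts mainly downstream of ATR. It was measured by 1 probe (NM_001114121, from base 2265 of the transcript, chr11:125030368-125030427 of hg18, plus strand), which lies in a single block of the genome. CHEK2 encodes the effector kinase activated by ATM, and it was measured by a brighter probe that crosses a splice junction (NM_001005735, from base 1661, chr22:27415145-27420020 of hg18, minus strand) and a dimmer probe in a single block (NM_145862, from base 412, chr22:27451275-27451334, minus strand). MRE11A, the nuclease of the break-binding complex, was measured by 1 probe (NM_005590, from base 1654, chr11:93832304-93832363 of hg18, minus strand). The 60-base probes of these 3 genes are shown because they carry the largest differences between the doses.
CHEK1 probe: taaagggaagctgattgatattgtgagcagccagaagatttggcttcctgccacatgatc
CHEK2 brighter probe: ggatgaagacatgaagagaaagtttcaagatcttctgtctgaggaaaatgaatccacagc
CHEK2 dimmer probe: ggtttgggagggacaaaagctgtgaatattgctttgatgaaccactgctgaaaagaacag
MRE11A probe: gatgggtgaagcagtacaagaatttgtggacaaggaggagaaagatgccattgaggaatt

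The CHEK1 signal was 554 in control cells, 572 at 10 µM and 153 at 100 µM. It was lowest at 100 µM, and the control and 10 µM could not be ordered, since their log2 difference of -0.02 ± 0.07 was within the spread between spots. The change at 100 µM over control was -1.61 ± 0.09, which is 0.328 of control, and that of 10 over 100 µM was 1.59 ± 0.09 or 3.01-fold. Of the genes measured, 1.61% were lower than CHEK1 at 100 µM over control and 1.86% were higher between the doses. Across the scalings tried, the 100 µM change of CHEK1 lay between -1.90 and -1.55, and with normexp background correction it was -1.21. Across all processing alternatives its change between the doses lay between 1.22 and 1.90.

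The brighter CHEK2 probe read 1058 in control cells, 1380 at 10 µM and 460 at 100 µM, so its order was 10 µM, control, 100 µM, with each step larger than 2 spot SDs. The change was 0.32 ± 0.07 at 10 µM over control, -0.95 ± 0.07 at 100 µM over control and 1.27 ± 0.07 for 10 over 100 µM, which is 2.42-fold. The dimmer probe, some distance 5′ of it on another RefSeq transcript, read 227, 315 and 106 in the same order of conditions. It gave 0.42 ± 0.09, -0.85 ± 0.11 and 1.27 ± 0.10, or 2.40-fold between the doses. The CHEK2 probes therefore gave the same order of the 3 arrays from separate stretches of the gene.

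MRE11A read 459 in control cells, 612 at 10 µM and 230 at 100 µM. Its order was the same as that of CHEK2, and each step was larger than 2 spot SDs. The change was 0.36 ± 0.07 at 10 µM over control, -0.74 ± 0.09 at 100 µM over control and 1.10 ± 0.08 for 10 over 100 µM, or 2.14-fold. MRE11A was the member nearest beyond the 2-fold threshold between the doses, and with normexp background correction it was at 0.92 on the log2 scale and short of it. The nearest member within 2-fold was MDC1 at 0.58 on the log2 scale.

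**Figure D2:**
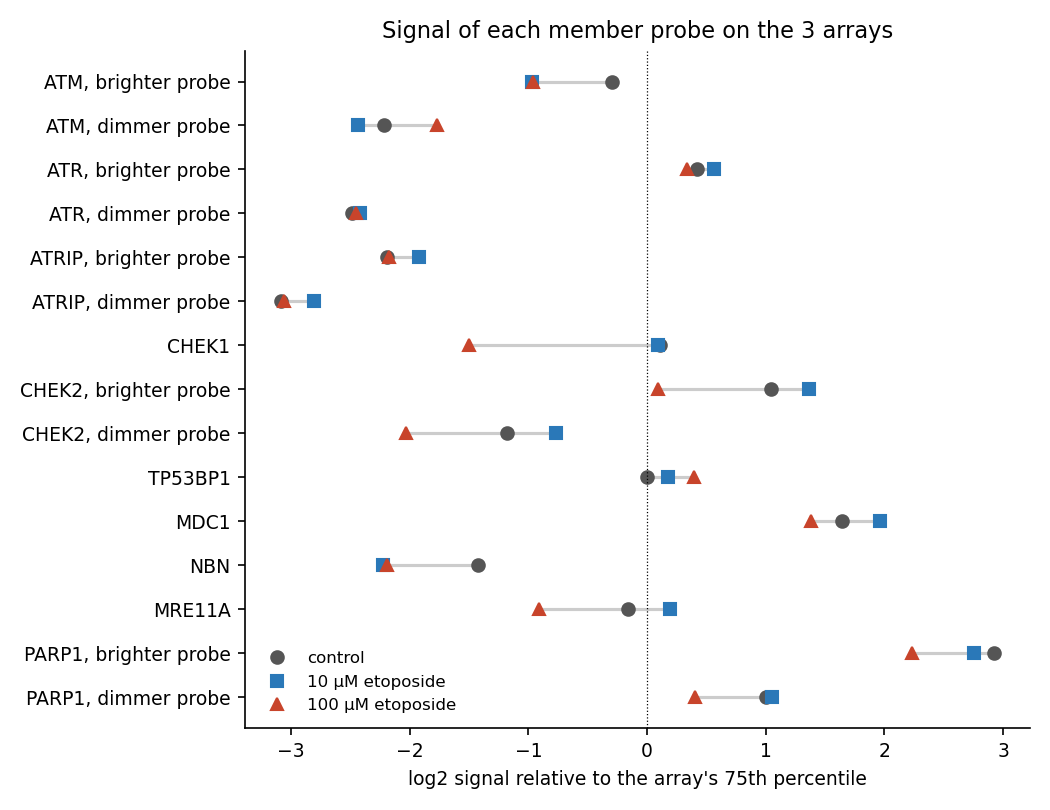
Log2 signal of each member probe after scaling, with 0 at the 75th percentile of the array (x axis), in control cells (circles), at 10 µM (squares) and at 100 µM etoposide (triangles), 1 array per condition. Positions are to be read along a row and not between rows. CHEK1, CHEK2, MDC1, MRE11A and PARP1 have 100 µM at the left end of their rows, and ATM (brighter probe) and NBN have both doses to the left of the control.

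The other subunits of the break-binding complex and the sensor PARP1 gave different orders. NBN, the subunit that docks ATM at breaks (NM_002485, probe from base 3741, chr8:91015560-91015619 of hg18), read 191 in control cells, 115 at 10 µM and 94.6 at 100 µM. It was lower than control by a similar amount at both doses, with log2 changes of -0.80 ± 0.10 and -0.77 ± 0.12, or 0.575 and 0.588 of control. Across all processing alternatives these changes lay between -0.82 and -0.57 at 10 µM and between -1.05 and -0.46 at 100 µM. Of all genes measured, 2.94% were lower than NBN at 10 µM over control, the lowest place of any member there. The doses themselves differed by -0.03 ± 0.12, within the spread between spots, so the 2 doses could not be ordered for NBN. NBN and MRE11A, subunits of 1 complex, were thus on opposite sides of control at 10 µM. The third subunit, RAD50, read 764, 790 and 620, with changes of -0.01 at 10 µM and -0.05 at 100 µM.

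PARP1, which binds DNA breaks and attaches poly(ADP-ribose) chains, was measured near the 5′ end (NM_001618, from base 367, chr1:224656568-224656627 of hg18) and further 3′ (from base 3156, chr1:224615784-224615843). The 5′ probe read 3902 in control cells, 3622 at 10 µM and 2036 at 100 µM. It was lower at 100 µM, with -0.69 ± 0.06 over control, and it was 1.43-fold higher at 10 than at 100 µM. The 3′ probe read 1029, 1111 and 572, with -0.60 ± 0.07 at 100 µM and 1.57-fold between the doses. At 10 µM over control the probes gave -0.17 ± 0.06 and 0.05 ± 0.07, so PARP1 has no settled direction there.

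ATM, the kinase that responds to double-strand breaks, had a pair of probes on 1 transcript (NM_000051) that did not give the same order. The brighter probe begins at base 607 (chr11:107605152-107605211 of hg18, plus strand) and the dimmer at base 9405 (chr11:107741295-107741354, plus strand), which is 8798 bases further along the RNA. Their sequences are shown because the direction of ATM at 100 µM depends on which of them is read.
ATM 5′ probe: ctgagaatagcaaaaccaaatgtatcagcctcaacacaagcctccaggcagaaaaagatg
ATM 3′ probe: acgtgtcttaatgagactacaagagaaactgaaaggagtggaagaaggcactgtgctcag

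The 5′ probe of ATM read 419 in control cells, 275 at 10 µM and 222 at 100 µM. After scaling it was lower than control by the same amount at both doses, with -0.67 ± 0.08 and -0.67 ± 0.09, which is 0.628 and 0.630 of control. The 3′ probe, which the array carries 10 times, had a mean signal of 111 in control cells, 99.0 at 10 µM and 127 at 100 µM. Its change was -0.22 ± 0.04 at 10 µM and 0.44 ± 0.04 at 100 µM. Its 10 spots ranged from 86.8 to 122 in control cells, from 91.8 to 113 at 10 µM and from 120 to 134 at 100 µM. Relative to the 75th percentile they ranged from 0.169 to 0.238, from 0.171 to 0.211 and from 0.277 to 0.309, so the 100 µM spots lay above all others while control and 10 µM spots overlapped.

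The probes of ATM thus agree in being lower than control at 10 µM and lie on opposite sides of control at 100 µM. Under the scalings that shift all probes alike, the 5′ probe stayed between -0.96 and -0.61 and the 3′ probe between 0.15 and 0.50 at 100 µM. The difference between their changes at 100 µM was 1.11. Of 2291 pairs of probes that the array holds for 1 transcript, 1.44% differed by more, and the median pair differed by 0.15 in size. Of the pairs, 143 lie 5000 or more bases apart, as those of ATM do, and their median difference was 0.20 in size. At 10 µM over control the ATM probes differed by 0.45, against a median pair difference of 0.13 in size. Which RNA each probe of ATM detects was not tested.

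**Figure D3:**
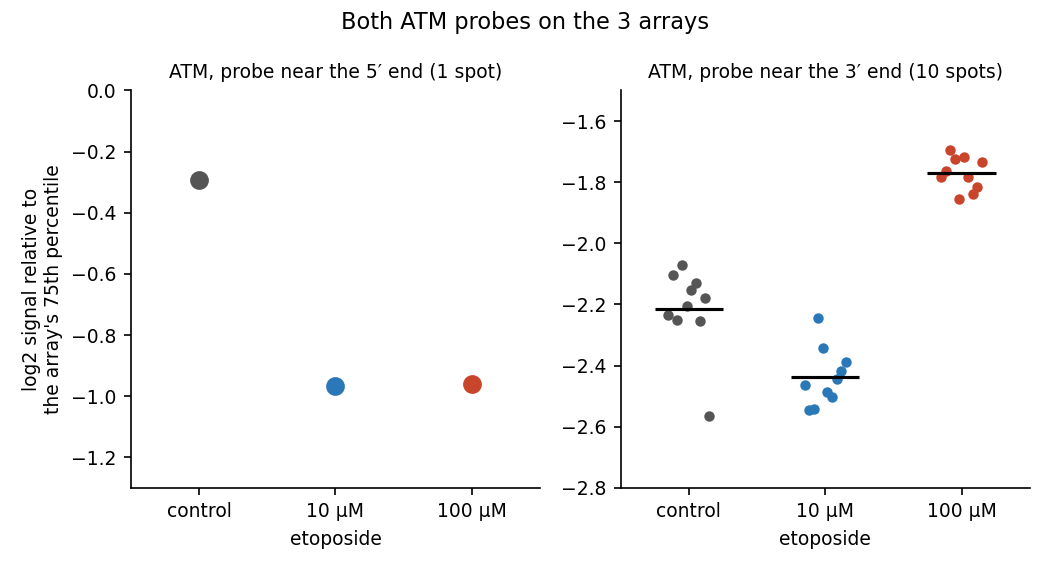
Log2 signal relative to the 75th percentile of the array for the ATM probes, in control cells and at 10 and 100 µM etoposide. The left panel has the probe near the 5′ end (1 spot per array). The right panel has the probe further 3′, from base 9405 (10 spots per array, bars are their mean). Its title places it near the 3′ end, but the length of the transcript was not read. The y axes cover different ranges of equal length. The left probe is lower at both doses, and all 10 spots of the right probe at 100 µM lie above those of the other arrays.

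No probe of ATR or ATRIP differed from control by 2-fold at either dose. ATR, the kinase that responds to single-stranded DNA at stalled forks (NM_001184), read 687, 795 and 547 at its brighter probe (from base 7904, chr3:143651054-143651113 of hg18), in the order control, 10 µM and 100 µM. Its changes over control were 0.15 ± 0.07 at 10 and -0.08 ± 0.07 at 100 µM, and 10 over 100 µM was 0.23 ± 0.07. Its dimmer probe (from base 6958, chr3:143667857-143667916) read 91.6, 100.4 and 78.8 and gave 0.07 ± 0.12, 0.03 ± 0.14 and 0.04 ± 0.13, all within the spread between spots. ATRIP, the obligate partner of ATR (NM_032166), had probes that both cross splice junctions, from base 1718 (chr3:48477144-48480148 of hg18) and from base 1972 (chr3:48480502-48481259). They read 113, 142 and 95.8, and 60.6, 76.9 and 52.0, with the lower signals at 100 µM offset by the lower 75th percentile of that array. At 10 µM over control ATRIP gave 0.27 ± 0.12 and 0.28 ± 0.16, and at 100 µM 0.02 ± 0.13 and 0.03 ± 0.19, so only the step up to 10 µM at the brighter probe exceeded 2 spot SDs over control. The 100 µM change of ATRIP was below 0 without scaling, with scaling to the median, with quantile normalization and with spike-in scaling.

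The adaptors differed from each other. MDC1, the scaffold that binds phosphorylated histone H2AX (NM_014641, probe from base 7159, chr6:30775712-30775771 of hg18), read 1607 in control cells, 2092 at 10 µM and 1127 at 100 µM. It had the order of CHEK2 and MRE11A with smaller steps, at 0.32 ± 0.06 for 10 and -0.26 ± 0.07 for 100 µM over control, and 0.58 ± 0.06 between the doses. TP53BP1, which binds methylated and ubiquitinated histones at breaks and favors end joining (NM_005657, probe crossing a splice junction from base 5837, chr15:41487043-41487474 of hg18), read 515, 608 and 568. After scaling its order was 100 µM, 10 µM, control. It was the only member whose brighter or sole probe was higher than control by more than 2 spot SDs at 100 µM, with 0.39 ± 0.08, and its 10 µM change was 0.18 ± 0.07. The change between the doses was -0.21 ± 0.07, and it was above 0 without scaling, with scaling to the median and with spike-in scaling.

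Taking the probe that stands for each gene, 6 members were higher than control by more than 2 spot SDs at 10 µM, 3 were lower and 1 was within. At 100 µM 1 was higher, 7 were lower and 2 were within. The same counts were not made over all genes, so these have no background to be read against. The quartiles of the log2 change over all genes were -0.25 and 0.22 at 10 µM, and -0.23 and 0.45 at 100 µM. CHEK2, MDC1 and MRE11A were beyond 2 spot SDs in opposite directions at the doses, and they kept opposite directions under every scaling tried. By sign alone 4 of 10 members were higher at 10 µM and lower at 100 µM, compared with 9.91% of 16451 genes measured in both comparisons. Both shares depended on the scaling. Without scaling ATRIP and CHEK1 joined them, giving 6 of 10 beside 24.6% of genes, with spike-in scaling it was 6 beside 20.0%, and with scaling to the median 5 beside 18.8%. None of the 10 was lower at 10 µM and higher at 100 µM under these scalings, compared with 21.9% of genes, and 8.28% without scaling. This depends on the probe that stands for ATM. The dimmer ATM probe was at -0.22 at 10 µM and 0.44 at 100 µM, and it kept both directions under these scalings.

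**Figure D4:**
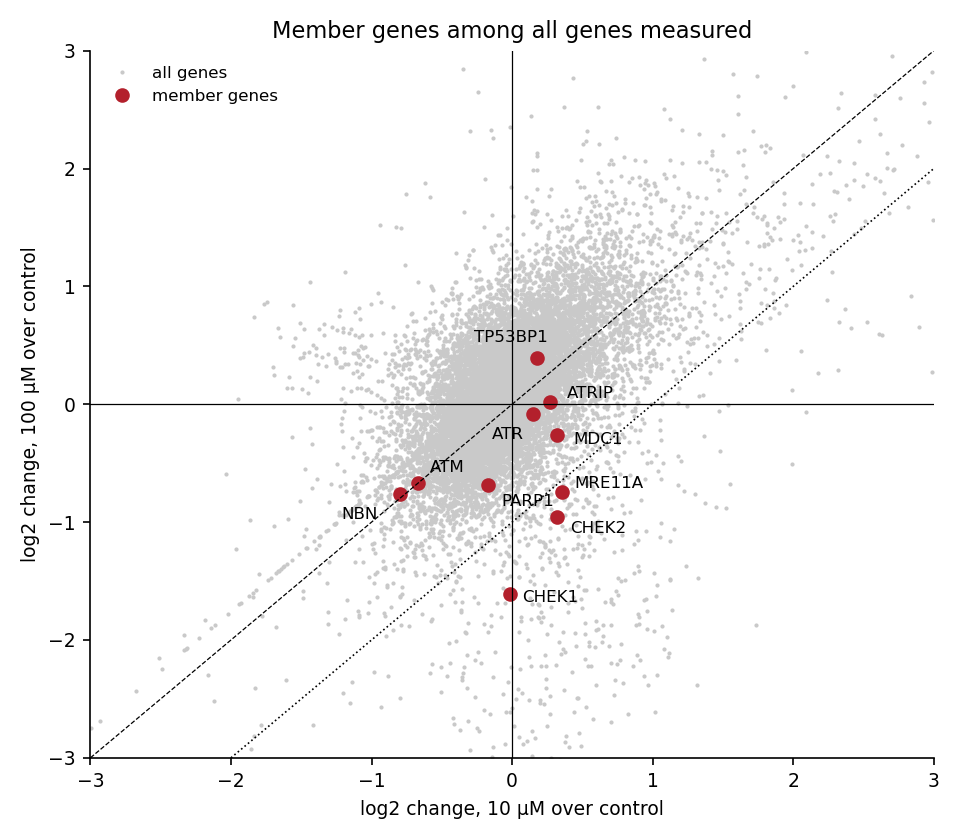
Log2 change at 10 µM over control (x axis) against 100 µM over control (y axis) for 16451 genes (grey, of which 64 lie outside the axes) and the 10 members (red, by the brighter probe), 1 array per condition. On the dashed line both changes are equal and below the dotted line 10 µM is more than 2-fold higher than 100 µM. CHEK1, CHEK2 and MRE11A lie below the dotted line, and ATM and NBN lie near the dashed line. Both axes share the control array.

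The 5 genes nearest to CHEK1 by their changes over control, of 12047 genes with a RefSeq mRNA accession and well above background on all arrays, were CKS2, RBBP8, DEK, PIF1 and PPIH. The likeness is the distance of a pair of log2 changes over 3 arrays, and it was 0.02 for CKS2 and 0.13 for PPIH. CKS2, which binds cyclin-dependent kinases, read 10529, 10918 and 2880, or 0.325 of control at 100 µM. RBBP8, also called CtIP, which works with the MRE11A nuclease in DNA end resection, read 680, 680 and 194, or 0.340 of control. The 5 nearest to the brighter ATM probe were RETNLB, PAWR, FLVCR2, HINT3 and MPHOSPH10, at distances of 0.02 to 0.04.

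The sequence before the start of transcription was examined for 9 of the members in RefSeq windows on GRCh38.p14, each from 250 bases before to 50 after an annotated start. MRE11A was matched through its present symbol, MRE11, and some genes have several starts. The letters of 3 promoter elements of genes that vary with the cell cycle were searched on both strands. For E2F sites these were TTTCCCGC, TTTGGCGC, TTTCGCGC and TTTGCCGC, for the cell cycle genes homology region TTTGAA, and for the binding site of NF-Y CCAAT. An E2F match was found in 0 of 9 members and in 3.99% of 27305 genes. TTTGAA was found in ATM and MDC1, 2 of 9, and in 18.2% of genes. CCAAT was found in 7 of 9 members, all but ATR and PARP1, and in 39.7% of genes. The 250 bases upstream are shown for the 3 genes that were more than 2-fold higher at 10 than at 100 µM, with CCAAT or its complement ATTGG in capitals. For CHEK1 the most upstream of its 3 starts is shown (chr11:125625974-125626223, plus strand), with a match 100 bases before the start. CHEK2 (chr22:28741821-28742070, minus strand) has matches 199, 70 and 40 bases before its start, and MRE11A (chr11:94493845-94494094, minus strand) 127 and 62 bases before it.
CHEK1 promoter: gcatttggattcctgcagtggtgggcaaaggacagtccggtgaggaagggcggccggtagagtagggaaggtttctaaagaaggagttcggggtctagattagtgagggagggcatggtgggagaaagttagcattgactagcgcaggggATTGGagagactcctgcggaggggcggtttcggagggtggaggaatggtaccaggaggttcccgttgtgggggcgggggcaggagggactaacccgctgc
CHEK2 promoter: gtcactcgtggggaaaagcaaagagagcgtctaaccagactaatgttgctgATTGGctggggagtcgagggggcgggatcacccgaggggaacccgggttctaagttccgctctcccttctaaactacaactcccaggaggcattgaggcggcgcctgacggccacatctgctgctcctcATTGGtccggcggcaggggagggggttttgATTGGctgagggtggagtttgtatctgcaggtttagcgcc
MRE11A promoter: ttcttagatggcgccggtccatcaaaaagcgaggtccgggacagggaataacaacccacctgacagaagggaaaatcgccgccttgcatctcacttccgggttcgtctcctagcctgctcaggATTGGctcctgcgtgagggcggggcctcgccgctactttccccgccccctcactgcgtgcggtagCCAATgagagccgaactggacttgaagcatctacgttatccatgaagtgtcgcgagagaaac

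The other genes of the pathway were taken as 8 lists with 69 genes on the array, of which 67 were well above background on some array. At 10 µM over control 5 of 67 were more than 2-fold higher, or 7.46% beside 3.38% of all genes, and none was lower, beside 1.58%. At 100 µM over control 2 of 67 were higher, or 2.99% beside 6.75% of all genes, and 16 lower, or 23.9% beside 3.63%, and the median was -0.33. Between the doses 25 of 66 were higher at 10 µM, or 37.9% beside 3.64% of all genes, and none was lower, with a median of 0.35. The count lower at 100 µM ranged from 15 to 21 and the count higher at 10 than at 100 µM from 22 to 27 across 6 scalings. Over all genes the corresponding shares ranged from 3.30% to 6.96% and from 3.27% to 5.97%.

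The list of checkpoint targets holds kinases and phosphatases, of which not all are direct substrates of CHEK1 or CHEK2. It had the lowest median of the 8 lists at 100 µM. Of 9, 6 were more than 2-fold lower at 100 µM with that median at -1.48, and 7 were more than 2-fold higher at 10 than at 100 µM. CDC25C, a phosphatase that activates CDK1 for entry into mitosis, read 533, 623 and 62.8, which is -2.84 at 100 µM. CDC2, the kinase now named CDK1, read 1763, 2709 and 318, which is -2.22. PKMYT1, which phosphorylates CDK1 and holds it inactive, and CDC25A were the members of this list past 2-fold at 10 µM over control, at 1.12 and 1.06. They were at -1.48 and -1.13 at 100 µM. TLK1 and TLK2, kinases of chromatin assembly factors, stayed within 2-fold at both doses.

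In the list of the 9-1-1 clamp and its loader, which help ATR to become active, 7 of 9 genes were measured. RFC3 and RFC4, subunits of the clamp loader that also loads the replication clamp, were at -1.95 and -1.57 at 100 µM, and in all 4 of 7 were more than 2-fold lower with a median of -1.15. RAD9A, a ring subunit of the clamp, was at 0.24, and HUS1 and RAD9B were not well above background on any array. Of 9 mediators of ATR activation, TIPIN and RPA3 were more than 2-fold lower, at -1.06 and -1.03, a count of 2 that ranged from 1 to 5 across scalings. ETAA1, an activator of ATR, was the gene of this list above 0 at 100 µM, at 0.14, and it was below 0 without scaling. CLSPN, the mediator that brings CHEK1 to ATR, read 41.1 in control cells and 125 at 10 µM, which is 2.93-fold higher. At 100 µM CLSPN was not well above background, and it was at least 4.67-fold higher at 10 than at 100 µM. Of the partners of MRE11A and NBN, RBBP8 was at -1.56 at 100 µM.

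Among 15 genes of chromatin signalling at breaks 3 were more than 2-fold lower at 100 µM. BARD1 and BRCA1, which form a ubiquitin ligase, were at -2.02 and -1.88, and BRCA1 was at 1.06 at 10 µM over control. RNF168, the ubiquitin ligase whose mark TP53BP1 reads, was at 0.32 and MCPH1 at 0.29 at 100 µM, and the median of this list was -0.22. The kinases of the same family as ATM and ATR with their assembly factors had no gene past 2-fold at either dose among 9, from PRKDC, the catalytic subunit of DNA-dependent protein kinase, at -0.82 and C8orf41 at -0.63 to SMG1 at 0.11 and MTOR at 0.29 at 100 µM. PRKDC was more than 2-fold lower at 100 µM without scaling and with scaling to the median. Of 5 phosphatase genes that act on the checkpoint, PPM1D, which reverses phosphorylation by ATM, was the single one past 2-fold at 10 µM, at 1.63 with signals of 693, 2229 and 855. It was at 0.55 at 100 µM, where PPP5C and PPP2CA were at -0.46 and -0.18.

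Of the list closest to PARP1, the poly(ADP-ribose) enzymes and partners, none of 11 was more than 2-fold lower at 100 µM, and the median was 0.24, which was below 0 with no scaling or with scaling to the median. PARP3 and PARP9 were at 1.17 and 1.08 at 100 µM, and neither was past 2-fold without scaling, with scaling to the median or with spike-in scaling. PARP2, the closest relative of PARP1, was at -0.35 and XRCC1, a scaffold of single-strand break repair, at -0.33.

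**Figure D5:**
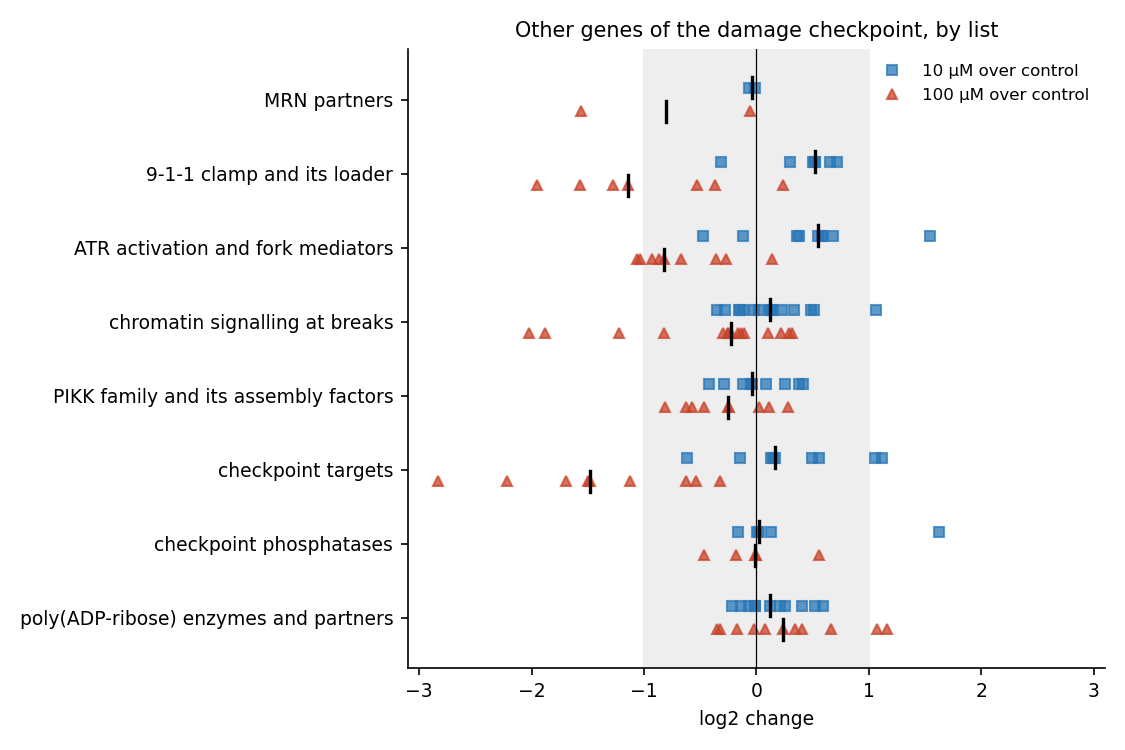
Log2 change over control of each measured gene in 8 lists of other checkpoint genes at 10 µM (squares) and 100 µM etoposide (triangles), 1 array per condition. Black ticks are the list medians and the grey band marks changes within 2-fold. The triangles of checkpoint targets, the clamp list and the ATR mediators lie mostly left of 0, with medians of -1.48, -1.15 and -0.83.

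The labelled cell line was checked against markers. All 10 hepatocyte markers, among them AFP and APOA1, were well above background on each array, and none of 4 fibroblast markers was on any. At 100 µM over control 8 of the 10 hepatocyte markers were above 0, with a median of 0.43 that ranged from 0.14 to 0.49 across scalings, and TTR was 2.16-fold higher, a value under 2-fold in some scalings. ALB and AFP were below 0 there, at -0.52 and -0.08, and ALB was at -0.74 at 10 µM over control. For 10 over 100 µM all 10 were below 0, with a median of -0.32 that ranged from -0.39 to -0.01 across scalings. All 4 leukocyte markers were well above background on each array, with summed signals of 1620 in control cells, 2050 at 10 µM and 2841 at 100 µM. Of these, CD14 read 521, 1184 and 1847. PTPRC, which defines leukocytes, read 257, 131 and 288. Of 3 endothelial markers 2 were above background in control cells, and the summed signals of all 3, before scaling, were 530, 363 and 354. The part of these changes in the results above was not tested. The log2 signals of 7 spike-in RNAs changed by -0.08 on average at 100 µM over control, while the 75th percentile changed by -0.25.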

How the data were processed

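RNA of 3 HepG2 cultures was hybridized to 1-color Agilent arrays, 1 per condition, and conditions were taken from the sample labels. The authors deposited the output of Agilent Feature Extraction (10.7.3.1), in which the intensity of each spot is background-subtracted and not scaled between arrays. The study's text names no normalization. The series table held the same values for all 44495 spots. The deposited intensity was taken to log2, outlier spots were left out, spots of a probe were averaged and each array was set relative to its 75th percentile over 34127 probes. The brightest probe stands for a gene. A signal not well above background was raised to the lowest signal that is, and the fold is then a bound. The spot SD is the median SD of the 50 repeated probes nearest in signal. A 2-fold threshold, the study's own between doses, was used for counts.

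The 10 members and the gene lists were chosen with earlier results of these data known. Named genes are all members, the 2 largest rises and 2 largest falls of each of the 8 lists at 100 µM over control, those past 2-fold at 10 µM, and the 5 nearest genes. ALB, AFP, APOA1, TTR, CD14, PTPRC, TLK1, TLK2, HUS1 and RAD9B were named outside this rule with their values in view. The averaging of spots, the scaling, the choice of a probe per gene and the comparison of arrays were tested on simulated data. The simulation shifted few genes, about equally up and down. It could not show which scaling holds when many genes change in the same direction. Other scalings, normexp background correction (limma 3.58.1, R 4.3.3), filters on dim probes and spots, probe rules and fold thresholds were tried. The normexp correction added 50 to each signal, which makes log2 changes of dim signals smaller. Python 3.11.15, pandas 2.3.3 and numpy 2.4.6 were used. With no annotation of hg18 at hand, exons were not named. Promoter windows came from RefSeq on GRCh38.p14, and that of NBN was not used.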

Additional observations from a re-analysis of the deposited data

Results flagged for a closer look

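CHEK2, MDC1 and MRE11A were higher than control at 10 µM etoposide and lower than control at 100 µM, each by more than 2 spot SDs. The arrays of the doses thus lay on opposite sides of the control array for them. The spot SD covers neither cultures nor RNA preparations. The log2 difference between 10 µM and 100 µM was 1.27 for CHEK2, 0.58 for MDC1 and 1.10 for MRE11A. The difference was not tested, since each dose has 1 array and both are compared with the same control array. How many of all genes lie beyond 2 spot SDs in opposite directions was not counted. The dimmer CHEK2 probe gave the same directions, at 0.42 and -0.85 over control.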

How the results depend on the processing

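No paired analysis was possible because the design holds a single array for any dose. The arrays' number limits the precision, and the causes of the shifts below were not tested. The median change of the 10 genes at 100 µM over control was -0.93 with no scaling, -0.97 with scaling to the median, -0.85 with spike-in scaling, -0.48 with normexp correction, -0.45 with the mean of a gene's probes and -0.43 with the dimmer probe of a pair, a choice made after seeing the data. Between the doses it was 0.70, 0.65 and 0.61 with no scaling, median and spike-in scaling. Members more than 2-fold lower at 100 µM numbered 3 with no scaling, 4 with scaling to the median and 2 with spike-in scaling. The shares of all genes beside these counts were 6.31%, 6.96% and 5.39%. A 1.5-fold threshold gave 6 members lower at 100 µM and 2 lower at 10 µM. A 3-fold threshold left 1 member higher at 10 µM than at 100 µM. The shares of all genes at these 2 thresholds were not counted. Scaling moved the median of all genes at 100 µM over control from 0.10 to -0.15 with no scaling, -0.19 with the median and -0.07 with spike-in RNA. The members' median minus that of all genes, which these shifts cannot move, was -0.78, compared with -0.71 with quantile normalization, -0.61 with normexp correction, -0.56 with the mean of a gene's probes and -0.53 with the dimmer probe. Normexp correction left 2 members more than 2-fold higher at 10 µM than at 100 µM, without MRE11A at 0.92, beside 2.41% of all genes. Of 405 values of single members under the alternatives, 308 moved by less than the spot SD and 21 changed sign. Several alternatives could hardly move a member. The series table held the same values, no member spot was saturated or an outlier, and every member probe was well above background. The count of 308 was therefore partly fixed in advance. No call among 53 changed sign, but these are the few calls of CHEK1, CHEK2 and MRE11A counted again under each alternative. With the dimmer probe the change was 0.44 for ATM and 0.03 for ATR at 100 µM and 0.05 for PARP1 at 10 µM over control.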
